A study of Mus musculus with 32 samples.

Results

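The RNA of 6 genes for amino acid transporters, Slc38a2, Slc7a5, Slc7a7, Slc3a2, Slc1a4 and Slc1a5, was followed in mouse mammary gland and liver. The genes were chosen by name, and every probe set that the array annotation ties to only 1 of them was used, over all groups. They came to 9 of the 12488 probe sets on the array and to 6 of the 8251 genes with a probe set of their own. Slc38a2 had 4 probe sets and each of the others had 1.

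The study measured RNA in excised tissue of wild-type FVB mice, an inbred strain, in 32 samples on 1 array each. Dams on normal chow gave mammary tissue on days 12 and 17 of pregnancy and on days 1, 2 and 9 of lactation, 4 arrays for each stage. The diet arm held 3 liver arrays from dams on 8% dietary fat, and 3 mammary arrays each on 8%, 16% and 40% fat. According to the series design, the 8% and 40% dams had been moved from chow to soy oil diets in the middle of lactation and were sampled at lactation day 10. How and when the 16% diet was fed is not stated, and the ages of the mice are not given in the labels. For the mammary 8% and 16% arrays, title and description disagree on the diet. Their descriptions name 40% fat, and the titles were followed. No group carries a transgene or a deletion. The labels call the samples individual but do not tie arrays to animals, so p-values measure the spread between these arrays, and precision is limited by the few arrays per group.

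Secretory cells of the mammary gland take amino acids from the blood through carriers in their outer membrane and build them into milk protein. Slc38a2 (SNAT2) brings in small neutral amino acids together with sodium. Slc7a5 (LAT1) and Slc7a7 (y+LAT1) are light chains that reach the cell surface only when paired with the heavy chain Slc3a2 (CD98). The Slc7a5 pair exchanges large neutral amino acids such as leucine, and the Slc7a7 pair exchanges cationic for neutral amino acids and is known from human lysinuric protein intolerance. Slc1a4 (ASCT1) and Slc1a5 (ASCT2) are sodium-dependent exchangers of small neutral amino acids, and Slc1a5 is known as a carrier of glutamine. Genes of this group, Slc38a2 and Slc7a5 among them, are known targets of Atf4, a transcription factor made when amino acids run short.

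On build GRCm38.p6, RefSeq places Slc38a2 at chr15:96687392-96699728, Slc7a5 at chr8:121881146-121907686, Slc7a7 at chr14:54369442-54420068, Slc3a2 at chr19:8706882-8723369, Slc1a4 at chr11:20302180-20332713 and Slc1a5 at chr7:16781334-16798274. The promoters of 2 genes are shown because they hold the letters searched for, and the RNA of both genes was called higher at pregnancy day 17 than at day 12 and at each lactation stage than at pregnancy day 17. The search was for TGATGNAA, the core of the composite site through which C/EBP and Atf4 proteins act in amino acid response genes, on both strands. Capitals mark the match, which for Slc1a4 reads on the opposite strand. The sequences are RefSeq's, build GRCm38.p6, minus strand, and run from 150 bases before the start of transcription through the last match, at chr11:20332710-20332863 and chr14:54417938-54418094.
Slc1a4: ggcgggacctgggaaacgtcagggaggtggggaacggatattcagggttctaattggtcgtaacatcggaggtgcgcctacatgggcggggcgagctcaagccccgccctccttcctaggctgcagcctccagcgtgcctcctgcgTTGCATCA
Slc7a7: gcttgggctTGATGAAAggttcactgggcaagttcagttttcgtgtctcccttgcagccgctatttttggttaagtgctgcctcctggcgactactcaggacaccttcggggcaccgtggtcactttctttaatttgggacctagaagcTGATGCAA
In Slc1a4 the match spans the start, from base -4 to base 4 counted from it. Slc7a7 has matches at bases -141 to -134 and -1 to 7 of this start, and 4 further starts in the table. Of these, 1 holds the second match again, at bases -243 to -236 of its own start, and the others hold none. Of all 32851 promoters of 300 bases in the table, 3.97% hold a match, and 4.51% of 27025 genes have a promoter that does. Among the 6 genes, 4 have a promoter in the table and 2 of these hold a match. Slc38a2 and Slc3a2 have no match in their windows, and Slc7a5 and Slc1a5 have no entry. The RNA of Slc38a2 was also called higher at each lactation stage than at pregnancy day 17. Of 20 genes of the Atf4 and amino acid response list, 8 (40%) have a promoter with a match, against 1 of 30 other amino acid and peptide carriers. A match is a description of letters, and binding was not measured.

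Values are the deposited intensities on a linear scale, and changes are differences between group means of log2 intensity, with a standard error (SE) from limma. Calls used an adjusted p under 0.05 (Benjamini-Hochberg, over 7189 probe sets for the stages). Only probe sets with at least 1 group mean at or above the median of all values were tested, and this filter line is an intensity of 18.6, or 4.22 in log2. The 6 genes passed, each through its brightest probe set, while the other 3 probe sets of Slc38a2 lay below the line in all 9 groups. The brightest sets of Slc38a2, Slc7a5 and Slc3a2 lay above 95.8% or more of probe sets by mean level, and those of Slc7a7, Slc1a4 and Slc1a5 above 75.8% or more. Each array correlated with the mean of the other arrays of its group at 0.99 or more. The liver arrays summed to 124639 to 137630 over 10 hepatocyte markers, against at most 2927 in any mammary array, and 9 of 11 milk protein genes were below the line in liver, so the tissues matched their labels.

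Over the 5 stages the transporters moved in different directions. Slc38a2, Slc7a7 and Slc1a4 were higher at all 3 lactation stages than at pregnancy day 17, Slc7a5 was higher at lactation days 2 and 9, and Slc1a5 was lower. Slc3a2 did not pass limma's F test over the stages (adjusted p = 0.0628), although it did under equal ribosomal medians (adjusted p = 0.025) and without any 1 of 4 arrays (adjusted p from 0.0122 to 0.0383). The other 5 genes passed it, with adjusted p-values from 1.68e-09 for Slc1a4 to 6.54e-05 for Slc38a2, on an array where 87.5% of tested probe sets did. Between lactation day 9 and pregnancy day 17, Slc7a7 and Slc1a4 rose 3.45-fold and 3.04-fold, and Slc1a5 was 2.99-fold lower.

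**Figure D1:**
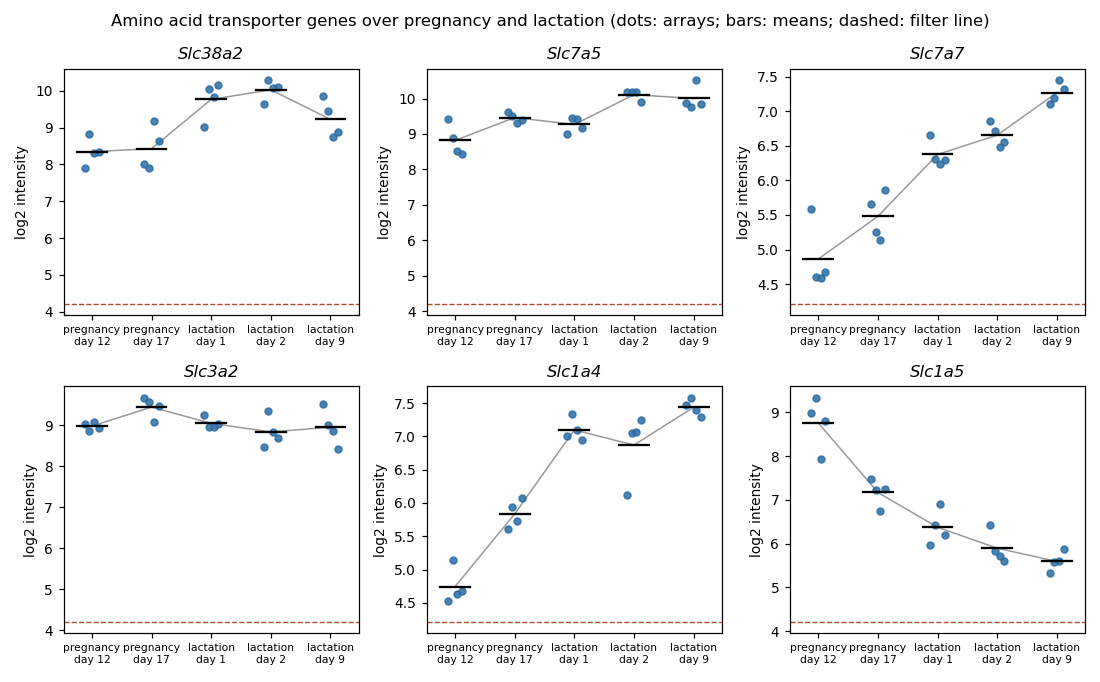
Log2 intensity of the 6 transporter genes in mammary gland over 2 stages of pregnancy and 3 of lactation. Dots are arrays (4 per stage), black bars are means joined by a grey line, and the dashed line is the filter line at 4.22. Slc7a7 and Slc1a4 lie higher at each lactation stage than in pregnancy, Slc1a5 declines, Slc38a2 steps up at lactation day 1, and Slc3a2 stays between 8.42 and 9.67 on every array.

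Slc38a2, the sodium-coupled importer, was low in pregnancy and stepped up after birth. At pregnancy day 12 its intensities were 239, 457, 319 and 321, and at day 17 they were 258, 238, 577 and 396. On lactation day 1 they were 518, 1055, 915 and 1144, and on day 2 they were 802, 1259, 1073 and 1092. On lactation day 9 they were 922, 695, 426 and 467. The arrays of lactation day 2 all lay above those of pregnancy day 17, while those of days 1 and 9 overlapped them. Slc38a2 rose by 1.34 ± 0.30 (SE, n = 4 per group, limma adjusted p = 0.00286) at lactation day 1 against pregnancy day 17, and by 1.60 ± 0.30 (3.03-fold, adjusted p = 0.000317) at day 2. The rise at lactation day 9 was 0.79 ± 0.30 (adjusted p = 0.0269), and it missed the threshold without lactation day 9 replicate 1 (0.59, adjusted p = 0.108) or replicate 2 (0.72, adjusted p = 0.0664), and likewise without pregnancy day 17 replicate 1 (0.66, adjusted p = 0.0872) and replicate 2 (0.62, adjusted p = 0.0984). Between lactation days 9 and 2 the difference was -0.80 ± 0.30 and did not pass (adjusted p = 0.0577), but it did over the groups compared alone (adjusted p = 0.0403), with the 75th percentile filter (0.0382), and with lactation day 9 replicate 1 left out (-1.01, adjusted p = 0.0247) or, on day 2, replicate 1 (-0.93, adjusted p = 0.0493). Between pregnancy days 17 and 12 the difference was 0.08 ± 0.30 (adjusted p = 0.837).

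The 3 dim probe sets of Slc38a2 gave another picture. Tested without the filter, they were higher by 0.26 to 0.42 at lactation day 2 than at pregnancy day 17 and by 0.42 to 0.56 at lactation day 9. They were also higher by 0.22 to 0.35 at pregnancy day 17 than at day 12, where the brightest set differed by 0.08. Slc7a1, a carrier of cationic amino acids, Slc7a8 (LAT2), a partner of Slc3a2, and Slc38a4 (SNAT4) lay below the filter line in all mammary groups and moved in the same order. Slc38a4 averaged 2.04 in log2 at lactation day 9 against 1.78 at pregnancy day 17, and Slc7a1 averaged 3.22 against 2.90. Levels below the line do not stand above background, and no change is read from them.

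Slc3a2, the heavy chain shared by both light chains, differed least over the stages. Its intensities were 519, 462, 543 and 489 at pregnancy day 12 and 812, 750, 538 and 703 at day 17. They were 609, 492, 496 and 518 on lactation day 1, 356, 647, 452 and 413 on day 2, and 732, 509, 465 and 343 on day 9. Pregnancy day 17 held the highest stage mean, and every lactation stage overlapped it. Slc3a2 was lower by 1.52-fold at lactation day 2 (-0.60 ± 0.20, limma adjusted p = 0.0155) and by 1.40-fold at day 9 (-0.49 ± 0.20, adjusted p = 0.0354) than at pregnancy day 17. At pregnancy day 17 against day 12 the change was 0.46 ± 0.20 and did not pass (adjusted p = 0.0594), but it did with quantile normalization (0.58, adjusted p = 0.0288), under equal ribosomal medians (0.59, adjusted p = 0.0116), over the groups compared alone (adjusted p = 0.0289) and without pregnancy day 17 replicate 3 (0.59, adjusted p = 0.0284). Both lactation calls depended on scaling. With quantile normalization the day 2 change was -0.49 (adjusted p = 0.058) and the day 9 change -0.15 (adjusted p = 0.555). With ribosomal medians set equal they were -0.18 (adjusted p = 0.374) and -0.05 (adjusted p = 0.83). The day 9 call was also lost in 6 of 8 fits that left out 1 array, where the change ran from -0.50 to -0.31, and the day 2 call in 2 of 8, without replicate 1 of lactation day 2 (-0.49, adjusted p = 0.06) or replicate 1 of pregnancy day 17 (-0.53, adjusted p = 0.0516).

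Slc7a5, the leucine exchanger, was higher in steps. Its intensities were 687, 471, 370 and 347 at pregnancy day 12 and 790, 731, 637 and 675 at day 17. They were 514, 705, 686 and 581 on lactation day 1, 1156, 1161, 1158 and 958 on day 2, and 945, 867, 1477 and 911 on day 9. Lactation days 2 and 9 lay wholly above pregnancy day 17, and day 2 lay wholly above day 1. Slc7a5 rose by 0.64 ± 0.19 (limma adjusted p = 0.0102) at pregnancy day 17 against day 12. Its difference at lactation day 1 against pregnancy day 17 was -0.20 ± 0.19 (adjusted p = 0.492). At lactation day 2 it rose by 0.84 ± 0.19 against day 1 (1.79-fold, adjusted p = 0.0075) and by 0.65 ± 0.19 against pregnancy day 17 (adjusted p = 0.00912). At lactation day 9 it rose by 0.54 ± 0.19 against pregnancy day 17 (adjusted p = 0.0186), and without lactation day 9 replicate 3 the value was 0.36 (adjusted p = 0.0922).

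Slc7a7, the light chain for cationic amino acids, was higher at pregnancy day 17 than at day 12 and higher again in lactation. Its intensities were 48.0, 24.2, 24.2 and 25.5 at pregnancy day 12 and 50.7, 38.1, 35.4 and 58.0 at day 17. They were 101, 79.4, 75.4 and 78.5 on lactation day 1, 116, 105, 89.4 and 94.4 on day 2, and 138, 145, 175 and 160 on day 9. Each lactation stage lay wholly above pregnancy day 17, and day 9 lay wholly above day 2. Slc7a7 rose by 0.62 ± 0.20 at pregnancy day 17 against day 12 (limma adjusted p = 0.0153), a call lost over the groups compared alone (adjusted p = 0.0692) and without replicate 2 of pregnancy day 12 (0.53, adjusted p = 0.0513) or replicate 4 of day 17 (0.49, adjusted p = 0.0617). Against pregnancy day 17 it rose by 0.89 ± 0.20 at lactation day 1 (adjusted p = 0.0022), by 1.17 ± 0.20 at day 2 (adjusted p = 9.46e-05) and by 1.79 ± 0.20 at day 9 (adjusted p = 3.6e-07). Between lactation days 9 and 2 it rose by 0.61 ± 0.20 (adjusted p = 0.0263), a call lost in 4 of 8 fits that left out 1 array, without replicates 3 or 4 of either stage (0.55 to 0.60, adjusted p from 0.0597 to 0.0763).

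Macrophages are known to express Slc7a7. The summed intensity of 12 macrophage markers, all with a probe set, was 2322 to 3507 at pregnancy day 12, 1368 to 1588 at day 17, 840 to 1060 on lactation day 1, 770 to 1057 on day 2 and 524 to 940 on day 9. Adgre1 and Itgam, which mark macrophages, were below the filter line in all of these groups. Of the 10 macrophage markers tested, 6 were lower and 1 was higher at lactation day 9 than at pregnancy day 17. Over all probe sets 31.9% were lower and 32.2% higher. The higher marker, Fcer1g, averaged 4.25 at lactation day 9 and 3.93 at pregnancy day 17, which is under the filter line. With ribosomal medians set equal, 4 markers were lower and 2 higher. The part of these cells in the levels of Slc7a7 was not tested.

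Slc1a4, the serine and alanine exchanger, spanned 3.49 in log2 over the mean levels of the mammary groups, beside 3.45 for Slc1a5 and 0.79 for Slc3a2. Its intensities were 23.1, 35.5, 24.7 and 25.5 at pregnancy day 12 and 48.9, 61.2, 52.9 and 67.3 at day 17. They were 128, 162, 137 and 124 on lactation day 1, 69.5, 132, 135 and 152 on day 2, and 178, 192, 169 and 157 on day 9. Pregnancy day 17 lay wholly above day 12, and each lactation stage lay wholly above pregnancy day 17, although 1 array of lactation day 2 came near it. Slc1a4 rose by 1.09 ± 0.19 (2.13-fold, limma adjusted p = 0.000158) at pregnancy day 17 against day 12. Against pregnancy day 17 it rose by 1.26 ± 0.19 at lactation day 1 (adjusted p = 8.68e-05), by 1.03 ± 0.19 at day 2 (adjusted p = 0.000288) and by 1.60 ± 0.19 at day 9 (adjusted p = 1.18e-06). Between lactation days 9 and 2 it rose by 0.57 ± 0.19 (adjusted p = 0.037), and without lactation day 2 replicate 1 the value was 0.32 (adjusted p = 0.14). That call was also lost without lactation day 9 replicate 1, 2 or 3 (0.52 to 0.58), over the groups compared alone (adjusted p = 0.0912), under equal ribosomal medians (adjusted p = 0.068) and with no filter (adjusted p = 0.0518).

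Slc1a5, the glutamine exchanger of the same family, went down over the course. Its intensities were 504, 646, 243 and 445 at pregnancy day 12 and 178, 149, 107 and 151 at day 17. They were 62.5, 86.0, 120 and 73.2 on lactation day 1, 86.4, 57.0, 52.7 and 48.3 on day 2, and 40.0, 47.8, 48.3 and 58.6 on day 9. Pregnancy day 17 lay wholly below day 12, and lactation days 2 and 9 lay wholly below pregnancy day 17. Slc1a5 fell by 1.59 ± 0.26 on the log2 scale at pregnancy day 17 against day 12 (3.01-fold lower, limma adjusted p = 7.15e-05). Against pregnancy day 17 it fell by 1.27 ± 0.26 at lactation day 2 (adjusted p = 0.000634) and by 1.58 ± 0.26 at day 9 (adjusted p = 4.19e-05). At lactation day 1 it fell by 0.80 ± 0.26 (adjusted p = 0.0306), a call lost with quantile normalization (-0.70, adjusted p = 0.0606), under equal ribosomal medians (-0.46, adjusted p = 0.174), with no filter (adjusted p = 0.0624) and in 6 of 8 fits that left out 1 array (-0.81 to -0.66, adjusted p from 0.0516 to 0.0961).

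Markers of stroma moved down with Slc1a5. The summed intensity of 12 fibroblast markers, all with a probe set, was 20142 to 24637 at pregnancy day 12, 13493 to 13822 at day 17, 6687 to 11312 on lactation day 1, 6636 to 8889 on day 2 and 1708 to 5709 on day 9. The sum of 10 adipocyte markers, of 12 in the list, was 10873 to 19044 at pregnancy day 12, 6162 to 7394 at day 17, 3521 to 7675 on lactation day 1, 2837 to 4433 on day 2 and 1663 to 3067 on day 9. None of these markers had a mean below the filter line in any of the 5 stages. The sum of 13 luminal epithelial markers, of 14 in the list, was 7162 to 9561 at pregnancy day 12 and 7281 to 8298 at lactation day 9. Even so, 8 of the 10 that were tested fell between pregnancy day 17 and lactation day 9, where 31.9% of all probe sets were called lower. In whole tissue, fewer cells of a type and less RNA per cell cannot be told apart, and the part of these cells in the fall of Slc1a5 was not tested.

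Counted by comparison, 3 of the 6 genes were higher and 1 was lower at pregnancy day 17 than at day 12, where 18.4% of all tested probe sets were called higher and 26.7% lower. Arrays did not overlap for 2 of the 6, against 37.6% of all probe sets. At lactation day 1 against pregnancy day 17, 3 were higher and 1 lower, beside 9.32% and 14% of all. Arrays did not overlap for 2, against 24.4%. At lactation day 2 against pregnancy day 17, 4 were higher and 2 lower, beside 25.5% and 24.5%, and arrays did not overlap for 5, against 50.3%. Between lactation days 2 and 1, 1 was higher and 0 were lower by limma, where 1 of 6 had an unadjusted p under 0.05, beside 6.11% and 8.18%. Its arrays did not overlap, as for 28.8% of all probe sets. Between lactation days 9 and 2, 2 were higher and 0 lower by limma, where 3 of 6 had an unadjusted p under 0.05, beside 8.82% and 16.2%. Arrays did not overlap for those 2, against 29.5% of all. At lactation day 9 against pregnancy day 17, 4 were higher and 2 lower, beside 32.2% and 31.9%, and arrays did not overlap for 4, against 58.3%. A change between these stages was thus common on the array.

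**Figure D2:**
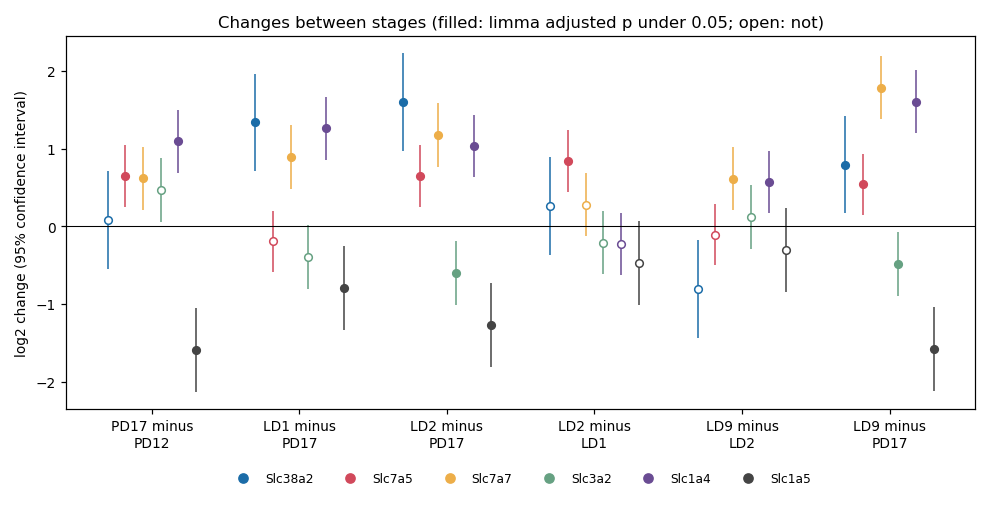
Log2 change of each transporter gene in 6 comparisons of stages, with 95% confidence intervals from limma (PD, pregnancy day, and LD, lactation day, 4 arrays per stage). Filled points passed an adjusted p of 0.05 and open points did not. Slc1a5 lies below 0 in all 6, and Slc7a7 lies above 0 in all 6.

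The scaling of the arrays bears on such counts. Setting the medians of 12 ribosomal protein genes equal moved the median change of all probe sets by 0.13 for pregnancy day 17 against day 12, by 0.34, 0.42 and 0.44 for lactation days 1, 2 and 9 against pregnancy day 17, and by 0.98 for liver against mammary gland. Quantile normalization moved it by 0.11 for pregnancy day 17 against day 12 and by -0.21 for liver, and by under 0.1 in the other comparisons. For pregnancy day 17 against day 12, 40.7% of calls were higher as deposited, 51.5% with quantile normalization and 62.0% with ribosomal medians. With ribosomal medians the share of calls that were higher was 90.5% against 40.0% at lactation day 1, 85.5% against 51.0% at day 2 and 76.8% against 50.2% at day 9, each set against pregnancy day 17. For lactation day 2 against day 1 it was 70.8% against 42.7%, and for liver 89.8% against 49.6%. For lactation day 9 against day 2, quantile normalization gave 50.3% against 35.3%.

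Differences between 2 transporters on the same array do not depend on a single factor per array, such as the ribosomal medians give, though quantile normalization can change them. They are used only for their change between stages, since the levels of different probe sets cannot be set against each other. Over 4 pairs and 3 comparisons, 12 exact two-sided permutation tests were made, and with 4 arrays against 4 the smallest p they can give is 0.0286, which is 0.0429 after adjustment.

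Slc1a4 gained on Slc1a5 in all 3 comparisons. The log2 difference between them averaged -1.33 ± 0.37 at pregnancy day 17 and -4.02 ± 0.50 at day 12 (SD, n = 4 each), a change of 2.68 (exact permutation, adjusted p = 0.0429). It averaged 0.98 ± 0.88 at lactation day 2, a change of 2.31 from pregnancy day 17, and 1.85 ± 0.32 at day 9, a change of 3.18, both at the smallest p, exact permutation. The arrays of the stages compared did not overlap. In each comparison Slc1a4 lay wholly higher and Slc1a5 wholly lower, so this separation and the smallest p followed from the single genes. These tests therefore add no support of their own.

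Both light chains gained on the heavy chain in lactation. The difference of Slc7a5 to Slc3a2 changed by 1.25 at lactation day 2 and by 1.03 at day 9 against pregnancy day 17, with no overlap (exact permutation, adjusted p = 0.0429 for each). The difference of Slc7a7 to Slc3a2 changed by 1.78 and by 2.27 (exact permutation, adjusted p = 0.0429 for each). At pregnancy day 17 against day 12 the changes were 0.18 (exact permutation, adjusted p = 0.617) and 0.15 (adjusted p = 0.655, exact permutation), and the arrays overlapped. Slc7a5 lost ground to Slc7a7 by -1.25 at lactation day 9 against pregnancy day 17 (exact permutation, adjusted p = 0.0429), while the -0.53 at day 2 did not pass (exact permutation, adjusted p = 0.0762). Of the 12 tests 8 passed, and 0 passed without pregnancy day 17 replicate 1, 2 or 3 (smallest adjusted p = 0.0571 by the exact permutation test) and 7 without replicate 4. With so few arrays, passing depends on how many of the 12 tests reach the smallest p. Without replicate 1, 2 or 3 the lactation day 9 change of Slc7a7 to Slc3a2 was 2.16 to 2.28. For Slc7a5 to Slc3a2 it was 1.00 to 1.10.

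**Figure D3:**
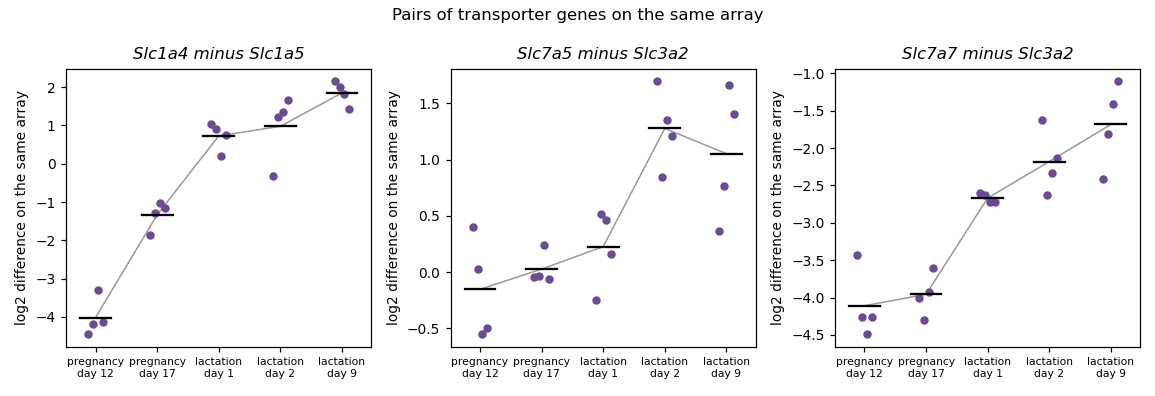
Log2 difference between 2 transporter genes on the same array at the 5 stages (dots are 4 arrays per stage, black bars are means joined by a grey line). Slc1a4 minus Slc1a5 averages -4.02 at pregnancy day 12 and 1.85 at lactation day 9, and both light chains minus Slc3a2 are higher at lactation days 2 and 9 than at pregnancy day 17 on every array.

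With the diets as the titles name them, none of the 6 genes was called by limma's adjusted p between glands on 8%, 16% and 40% fat. The descriptions of the 8% and 16% arrays name 40% fat, so these comparisons rest on the titles. For 40% against 8% fat, 0 of 6 were called and 0 had an unadjusted p under 0.05, where 0.0925% of 6483 probe sets were called and 8.30% had such a p. For 40% against 16% fat, 0 were called and 1 had an unadjusted p under 0.05, beside 0.123% and 13.7% of all. For 16% against 8% fat, 0 were called and 1 had an unadjusted p under 0.05, beside 0% and 12.3%. Arrays did not overlap for 0, 1 and 1 of the 6 genes in these comparisons, against 13.1%, 17.1% and 21.4% of all probe sets.

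Slc7a5 was the gene whose arrays did not overlap between 40% and 16% fat. Its intensities were 1441, 1469 and 1919 on 8% fat, 2540, 1872 and 2234 on 16% and 1800, 1475 and 932 on 40%. The 16% arrays were the higher ones, and the difference of 40% to 16% fat was -0.70 ± 0.23 (limma adjusted p = 0.236, 95% interval -1.21 to -0.19). Slc1a4 had intensities of 219, 353 and 351 on 8% fat, 209, 127 and 206 on 16% and 310, 274 and 161 on 40%. Its 16% arrays lay below the 8% arrays, with a difference of -0.77 ± 0.29 (adjusted p = 0.343, 95% interval -1.42 to -0.12).

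The other genes overlapped between all diets. Slc38a2 had 761, 568 and 683 on 8% fat, 838, 793 and 702 on 16%, and 656, 704 and 802 on 40%. Slc7a7 had 163, 191 and 212, then 188, 173 and 162, and 239, 221 and 148 on the same diets. For 40% against 8% fat the 95% intervals of the log2 change were -0.19 to 0.40 for Slc38a2 and -0.32 to 0.48 for Slc7a7, so shifts within these bounds are not excluded with 3 arrays per diet. Slc3a2 had 564, 661 and 954 on 8% fat, 846, 662 and 867 on 16%, and 917, 573 and 466 on 40% (40% against 8%, 95% interval -0.76 to 0.40). Slc1a5 had 48.6, 41.5 and 30.6 on 8% fat, 43.0, 46.9 and 55.4 on 16%, and 43.7, 40.5 and 55.1 on 40% (40% against 8%, 95% interval -0.19 to 0.63).

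Levels of the transporters in liver differed from those in the gland on the same diet. In liver on 8% fat, Slc38a2 was higher than in mammary gland on 8% fat and the other 5 genes were lower, and no arrays overlapped. That is 1 gene higher and 5 lower, in a comparison where 39.7% of 6897 probe sets were called higher, 40.3% lower, and 83.1% did not overlap. Whether the liver and mammary arrays came from the same dams is not stated, and they were treated as independent.

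Slc7a5 and Slc1a4 were far lower in liver. For Slc7a5 the intensities were 29, 36.2 and 20.9 in liver, against 1441, 1469 and 1919 in mammary gland. It was 57.0-fold lower in liver (-5.83 ± 0.21, limma adjusted p = 1.08e-07). Slc1a4 had 9.54, 7.20 and 11.1 in liver, against 219, 353 and 351 in mammary gland. The liver values lay below the filter line, so only a bound can be given, and set against the line Slc1a4 was at least 16.1-fold lower in liver (adjusted p = 4.19e-07; measured means 3.19 and 8.23 in log2). The pair of chains Slc7a7 and Slc3a2 was lower too. Slc7a7 had 35.1, 50.6 and 32 in liver, against 163, 191 and 212 in mammary gland, 4.88-fold lower (-2.29 ± 0.19, adjusted p = 1.37e-05). Slc3a2 had 205, 219 and 195 in liver, against 564, 661 and 954 in mammary gland, 3.44-fold lower (-1.78 ± 0.19, adjusted p = 5.78e-05).

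The calls of Slc38a2 and Slc1a5 rest on the scaling. Slc38a2 had 944, 1034 and 1264 in liver, against 761, 568 and 683 in mammary gland, 1.61-fold higher (0.69 ± 0.15, limma adjusted p = 0.00358). The change was 0.03 with quantile normalization (adjusted p = 0.85) and 1.66 under equal ribosomal medians (adjusted p = 8.9e-06). Slc1a5 had 22.6, 17.0 and 21.2 in liver, against 48.6, 41.5 and 30.6 in mammary gland, 1.96-fold lower (-0.97 ± 0.19, adjusted p = 0.00183). With ribosomal medians set equal it showed no fall (0.0018, adjusted p = 0.994). Slc7a5, Slc7a7, Slc3a2 and Slc1a4 stayed lower in liver under both scalings.

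**Figure D4:**
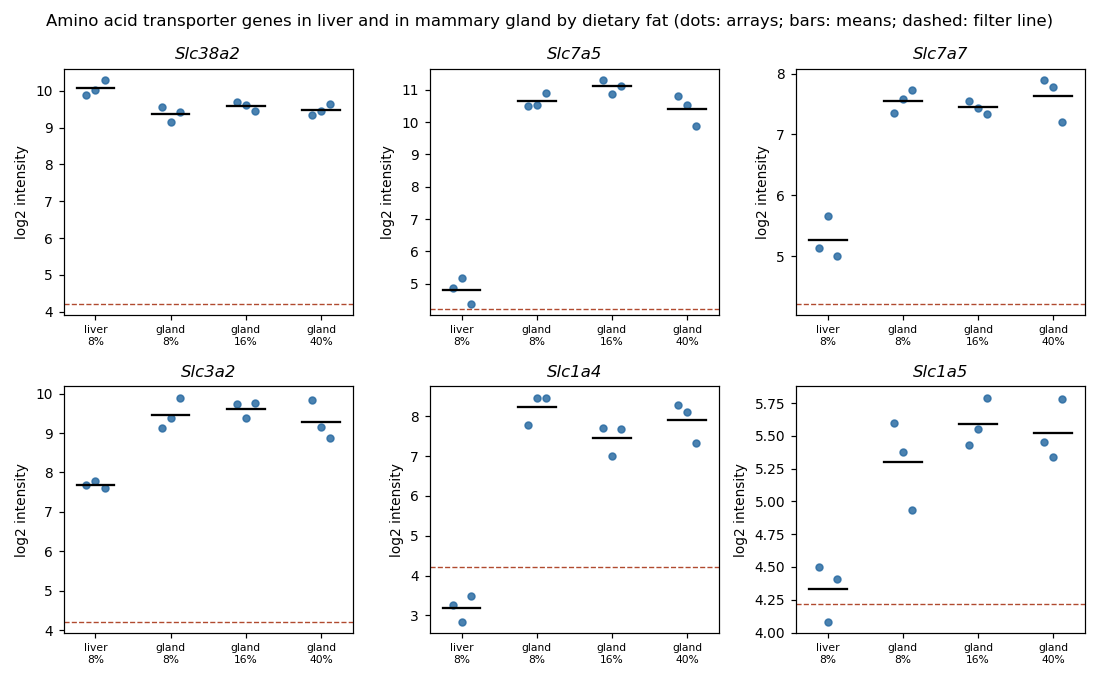
Log2 intensity of the 6 transporter genes in liver on 8% fat and in mammary gland on 8%, 16% and 40% fat. Dots are arrays (3 per group), black bars are means, and the dashed line is the filter line at 4.22. Liver lies far below the gland for Slc7a5 (4.81 against 10.6 at 8% fat) and for Slc1a4, whose liver arrays are under the line, and, as deposited, above it for Slc38a2, while the diets overlap for most genes.

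The gland on 8% fat at lactation day 10 was also set against the chow gland at lactation day 9, where day, diet and set of animals cannot be told apart. Only Slc1a4 was called, with 219, 353 and 351 on 8% fat against 178, 192, 169 and 157 on chow (0.79 ± 0.18, limma adjusted p = 0.0296). Here 15.3% of 6735 probe sets were called in either direction, and arrays did not overlap for 38.8% of probe sets and for 1 of the 6 genes. The call was lost with quantile normalization (0.63, adjusted p = 0.0659) and without 8% fat replicate 2 (0.67, adjusted p = 0.107) or 3 (0.68, adjusted p = 0.0978), or lactation day 9 replicate 3 (0.78, adjusted p = 0.0656) or 4 (0.74, adjusted p = 0.0742).

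In order of level over the 9 groups, the genes had their highest mean in 5 different groups. Slc38a2 was highest in liver (10.07 ± 0.21, SD, n = 3), followed by lactation day 2 (10.03 ± 0.27, n = 4), and no neighbours in its order lay apart. With quantile normalization its mean was 9.53 in liver, below lactation day 2 at 10.00. Slc7a5 was highest on 16% fat (11.10 ± 0.22, n = 3), and its order broke between lactation day 9 and pregnancy day 17 and above liver. Slc7a7 was highest on 40% fat (7.63 ± 0.37, n = 3), and its order broke below lactation day 9 and below lactation day 1. Slc3a2 was highest on 16% fat (9.62 ± 0.22, n = 3), with a break only above liver (7.69 ± 0.08, n = 3). Slc1a4 was highest on 8% fat (8.23 ± 0.40, n = 3), and pregnancy day 17, pregnancy day 12 and liver each lay apart below. Slc1a5 was highest at pregnancy day 12 (8.76 ± 0.60, n = 4), which lay apart from pregnancy day 17, as liver did from the gland on 8% fat. From lactation day 1 to the diets the neighbours in its order overlapped.

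Genes with the most similar pattern were taken by Pearson correlation over the 29 mammary arrays among 5512 genes, as a description, since the arrays share stages and the coefficient follows the differences between them. For Slc38a2 they were Abhd5, a cofactor of fat breakdown (0.86), Cited2, a transcription coregulator (0.86), and the cytokine Il15 (0.84). For Slc7a5 they were Cyb561, a membrane cytochrome (0.90), Nupr1, a stress-response nuclear protein (0.88), and the kinase Nek7 (0.88). For Slc7a7 they were Srpr, a receptor for secretory protein synthesis at the endoplasmic reticulum (0.97), H2-Q1, a histocompatibility gene (0.97), and the growth factor Egf (0.97). For Slc1a4 they were Jtb (0.96), the zinc transporter Slc39a6 (0.96) and Ceacam10 (0.95). For Slc1a5 they were the adhesion molecule Mcam (0.97), the secreted protease Htra1 (0.96) and Apbb1ip (0.96). Slc3a2 had weaker matches, with the autophagy receptor Sqstm1 (0.72), the lysosomal enzyme Glb1 (0.71) and Sgpp1 (0.69).

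Other carriers for amino acids and peptides in the outer membrane were a mixed group. Of 43 listed, 20 had a probe set and 7 were tested over the stages. At lactation day 2 against pregnancy day 17, 3 were higher and 2 lower, where 25.5% and 24.5% of all probe sets were. Slc38a10 rose by 0.76 (limma adjusted p = 6.73e-05). Slc7a11 (xCT), the cystine exchanger that also pairs with Slc3a2, averaged 4.67 in log2 at lactation day 2, against 4.13 at pregnancy day 17, which is under the filter line (adjusted p = 0.00176). Slc15a2, a peptide transporter, fell by 1.05 (adjusted p = 0.00044), and Slc6a6, the taurine transporter, fell by 0.61 (adjusted p = 0.00535). With ribosomal medians set equal the change of Slc6a6 was -0.19 (adjusted p = 0.379). At lactation day 9, 5 were higher and 1 lower, beside 32.2% and 31.9% of all. Of the 5, Slc38a5, Slc6a8 and Slc7a11 lay under the line at pregnancy day 17 (4.04, 3.95 and 4.13), as did Slc38a5 and Slc7a11 among the 3 at day 2, so they were tested only through groups where they are high. Slc6a6 fell by 1.17, and Slc38a10 rose by 0.55.

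The Atf4 list held genes of amino acid synthesis and stress. At lactation day 2 against pregnancy day 17, 6 of 14 tested were higher and 2 lower (median 0.30 against 0.04), beside 25.5% and 24.5% of all probe sets. At lactation day 9, 7 were higher and 0 lower by limma (median 0.38 against 0.01), beside 32.2% and 31.9% of all. None were lower at day 9 at an unadjusted p under 0.05. Aldh18a1, which starts proline synthesis, rose by 1.51 at day 2 (limma adjusted p = 1.02e-06) and by 1.21 at day 9. Psat1, of serine synthesis, rose by 0.80 (adjusted p = 0.0144) and Asns, asparagine synthetase, by 0.79 (adjusted p = 0.000679) at day 2. Nupr1 rose by 0.93 at day 2 and by 1.51 at day 9, and Trib3, a target of the same pathway, by 1.16 at day 9. Atf4 itself averaged 9.46 ± 0.26 at lactation day 2 against 9.21 ± 0.10 at pregnancy day 17 (SD, n = 4 each; change 0.25, adjusted p = 0.11), and it rose by 0.46 at lactation day 1 (adjusted p = 0.0102) and by 0.41 at day 9 (adjusted p = 0.00746).

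The RNA of genes for amino acid sensing by mTORC1 was called at shares near or below those of the array. Against pregnancy day 17, 4 of 17 tested genes were higher and 3 lower at lactation day 2, and 3 were higher and 4 lower at day 9 (medians -0.02 and 0.04). With ribosomal medians set equal the counts were 11 higher and 0 lower by limma at day 2 and 11 higher and 1 lower at day 9, with medians near those of all probe sets (0.40 against 0.48, and 0.48 against 0.47). Sesn1, 1 of the lower genes on both days, lay under the filter line in the groups compared. Lamtor4, of the complex that anchors mTORC1 to the lysosome, fell by 0.59 and by 0.86. Rragc, a GTPase of the same switch, fell by 0.74 at day 9. With ribosomal medians the changes of Lamtor4 at day 2 (-0.17, limma adjusted p = 0.297) and Rragc at day 9 (-0.29, adjusted p = 0.117) did not pass. Mtor itself averaged 7.12 ± 0.17 at lactation day 2 against 6.94 ± 0.25 at pregnancy day 17 (SD, n = 4 each; change 0.18, limma adjusted p = 0.292).

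The sodium pump maintains the sodium gradient that Slc38a2 uses. Its 5 tested genes were the beta subunit Atp1b3 and the regulators Fxyd1, Fxyd2, Fxyd3 and Fxyd5, and no alpha subunit was among them. Against pregnancy day 17, 1 of the 5 was higher and 2 were lower at both lactation days 2 and 9. Over all probe sets 25.5% were higher and 24.5% lower at day 2, and 32.2% and 31.9% at day 9. Fxyd1, 1 of the 2 lower genes, lay under the filter line (2.76 at lactation day 2 and 2.69 at day 9, against 3.96 at pregnancy day 17). The beta subunit Atp1b3 fell by 0.40 and by 1.22, and the regulator Fxyd2 rose by 1.02 and by 0.66. With ribosomal medians the change of Atp1b3 at day 2 was 0.02 (limma adjusted p = 0.914). Mitochondrial amino acid carriers were measured by only 2 genes, Slc25a15 and Slc25a44, and 0 were called at lactation day 9 by limma, with 0 at an unadjusted p under 0.05. Slc25a15, the ornithine carrier, was called lower at lactation day 2, but its means of 3.67 there and 4.16 at pregnancy day 17 both lay under the filter line.

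Enzymes that interconvert or break down amino acids had 17 tested members. At lactation day 2 against pregnancy day 17, 6 were higher and 2 lower (median 0.16 against 0.04), beside 25.5% and 24.5% of all probe sets. At day 9 against pregnancy day 17, 8 were higher and 2 lower (median 0.25 against 0.01), beside 32.2% and 31.9%. Bcat2, the mitochondrial transaminase of branched-chain amino acids, rose by 0.99 at day 2 and by 0.64 at day 9. Glud1, glutamate dehydrogenase, fell by 0.79 and by 1.01. Arg2, mitochondrial arginase, fell by 0.80 at day 2 and rose by 1.07 at day 9. With ribosomal medians the day 2 changes of Glud1 (-0.37, limma adjusted p = 0.087) and Arg2 (-0.38, adjusted p = 0.0948) did not pass.

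**Figure D5:**
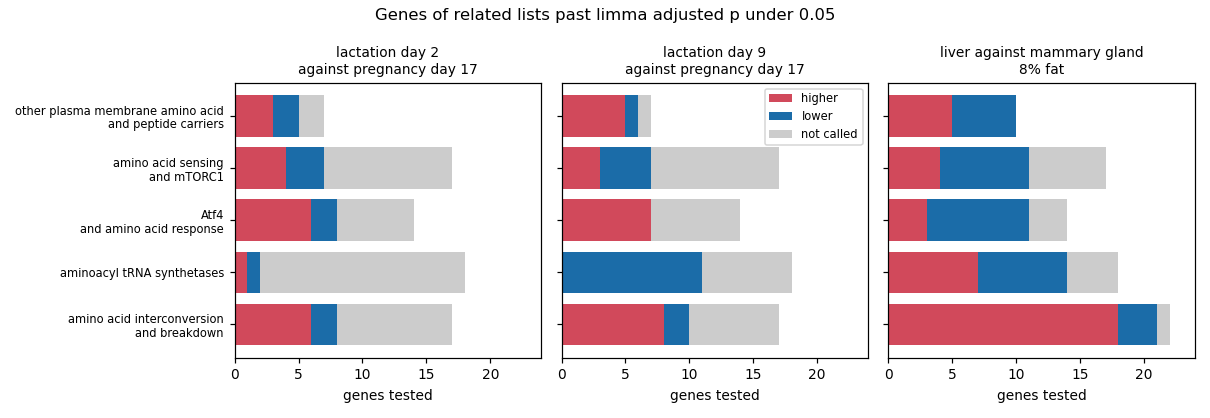
Number of tested genes called higher, called lower or not called by limma in 5 lists of genes of amino acid handling, for lactation days 2 and 9 against pregnancy day 17 and for liver against mammary gland on 8% fat. Enzymes of interconversion and breakdown are mostly higher in liver (18 of 22, against 39.7% of all probe sets). At lactation day 9, 11 of 18 aminoacyl tRNA synthetases are lower, against 31.9% of all probe sets.

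In liver against mammary gland on 8% fat, 5 of 10 other carriers were higher and 5 lower, where 39.7% and 40.3% of all probe sets were. Slc38a4, a relative of Slc38a2, averaged 9.46 ± 0.07 in liver and 1.88 ± 0.02 in mammary gland (SD, n = 3 each), where it is below the filter line, and was at least 38.0-fold higher in liver (limma adjusted p = 1.48e-10). Slc6a9, the glycine transporter, was 4.56-fold higher in liver, Slc6a6 was 4.41-fold higher and Slc15a2 was 6.74-fold lower. Of the Atf4 list 3 of 14 were higher and 8 lower in liver (median -0.61 against -0.01 over all probe sets). Asns was 33.8-fold lower (adjusted p = 1.17e-07) and Nupr1 126-fold lower, and Psat1 was at least 21.1-fold lower. With ribosomal medians set equal, 9 of 13 other carriers were higher and 2 lower in liver, and 7 of 15 genes of the Atf4 list were higher and 5 lower, with a median of 0.40 against 0.82 over all probe sets. As deposited, 18 of 22 breakdown enzymes were higher and 3 lower in liver (median 2.06), beside 39.7% and 40.3% of all probe sets. Cps1, of the urea cycle, was at least 210-fold higher in liver, and Tat, tyrosine aminotransferase, at least 350-fold higher.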

How the data were processed

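RNA of mammary gland and liver was measured on 32 single-colour arrays. Intensities were deposited on a linear scale, 1 table for all arrays; per the submitters' processing notes the authors used GCRMA, which corrects background, normalizes and summarizes probes (version not given in the sources used here). Values below 1, 208 of 399616, were set to 1 before log2, with no further normalization. Per the labels, total RNA of individual samples was made into biotinylated cRNA.

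Groups followed the titles. Probe sets took gene names from the array annotation, updated by Entrez ID, and 66 control probe sets were left out. Linear models with moderated variances (limma 3.58.1, R 4.3.3) used 3 fits of several groups: 20 stage arrays, 9 mammary diet arrays, and 6 arrays of liver and gland on 8% fat. The 8% gland and lactation day 9 formed a further fit of their own. Tests ran over all probe sets passing the filter, with adjustment over all of them. Alternatives varied the filter, the log offset, the scaling, the groups fitted, the variance trend, the replicate block and single arrays. The counts and named genes of the lists under the scalings were added after seeing the data. The procedure was tested on simulated data.

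The members, gene lists and tests were chosen with earlier results of these data known. Named genes were all members, the 3 most similar genes of each, up to 4 called genes with the largest change per list and comparison (fewer are printed), and 9 fixed genes. Lists were written from general knowledge. Lower bounds of fold changes set the group below the filter line at that line.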

Additional observations from a re-analysis of the deposited data

Results flagged for a closer look

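Among 45 groups of 4 arrays, 5 stages by 9 probe sets, 3 held an array whose gap to its nearest neighbour exceeded Dixon's 95% critical value, where chance flags about 1 in 20 groups. Slc7a5 at lactation day 9 replicate 3 was 10.53 in log2 intensity, and the other arrays of the stage lay between 9.76 and 9.88. Slc7a5 at lactation day 2 replicate 4 was 9.90, below the others at 10.17 to 10.18. Slc7a7 at pregnancy day 12 replicate 1 was 5.59, above the others at 4.59 to 4.67.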

How the results depend on the processing

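Of 1351 alternative values for 84 results of member genes (changes between groups, F tests and within-array differences), 1260 kept their side of the threshold, 23 of them uncalled values that turned sign. Of the others, 74 lost the call, 16 gained it, and 1 called value changed sign and was no longer called. That value is Slc1a5 in liver against mammary gland with ribosomal medians set equal (0.0018, limma adjusted p = 0.994). The cause was not tested. Replicate numbers were not taken as pairs: correlations of same-numbered deviations ran from -0.25 to 0.30, and in no comparison were all above 0.1. With 3 or 4 pairs per comparison, such correlations cannot exclude a shared batch. With the replicate block, Slc1a4 on 8% fat against lactation day 9 was 0.74 (adjusted p = 0.096), so 0 genes were higher and 60 probe sets were called against 1029, and 1 probe set was called for 40% against 8% fat and 5 for 40% against 16%; other member counts kept their size.

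The count of members lower at lactation day 1 against pregnancy day 17 was 0 with no filter, quantile normalization or ribosomal medians, and 0 to 1 when 1 replicate was left out. At lactation day 2 against pregnancy day 17 it was 1 with either scaling and 1 to 2 leaving out 1 replicate. At lactation day 9 it was 1 with either scaling or only the groups compared, and 1 to 2 leaving out 1 replicate. Between lactation days 9 and 2, 1 was higher with no filter, ribosomal medians or only the groups compared (0 to 2 leaving out 1 replicate), and 1 was lower with the 75th percentile filter or only the groups compared (0 to 1). In liver 0 were higher with quantile normalization. On 8% fat against lactation day 9, 2 were higher with no filter and 0 with quantile normalization (0 to 1 leaving out 1 replicate). The 8 within-array differences ranged from 0 to 8 leaving out 1 replicate.

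The filter changes how many probe sets are tested, and with it the counts over all of them. No filter gave 6873, 7676 and 9266 for pregnancy day 17 against day 12 and lactation days 2 and 9 against pregnancy day 17, 11102 for the F test, 10292 for liver, 5128 for 8% fat against lactation day 9 and 5 for 40% against 16% fat. The 75th percentile filter gave 1890, 2107, 2601, 3538, 3368, 626 and 22 for the same. Ribosomal medians gave 3903 for lactation day 1 against pregnancy day 17, 25 for 40% against 16% fat and 591 for 8% fat against lactation day 9, for which quantile normalization gave 544. For 40% against 8% fat, quantile normalization and only the groups compared gave 1 each, against 6. For 40% against 16% fat, the offset of 16 gave 18 and only the groups compared 13, against 8. Leaving out 1 replicate gave 523 to 1332 for lactation day 2 against day 1 (523 without day 1 replicate 3), 1 to 4 for 40% against 8% fat, 1 to 18 for 40% against 16%, 0 to 2 for 16% against 8%, and 180 to 2267 for 8% fat against lactation day 9 (180 without 8% replicate 2, 2267 without lactation day 9 replicate 2). Low signal limits Slc1a4 and Slc1a5 in liver and the dim probe sets of Slc38a2, and 3 or 4 arrays per group limit every interval.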

Other observations

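Aminoacyl tRNA synthetases, the enzymes that load amino acids onto their tRNAs, were lower at lactation day 9. Of 18 tested genes, 1 was higher and 1 lower at lactation day 2 against pregnancy day 17, with a median change of 0.03 against 0.04 over all probe sets. At lactation day 9 against pregnancy day 17, 0 were higher by limma (0 at an unadjusted p under 0.05) and 11 were lower, with a median of -0.62 against 0.01. Against lactation day 2, 0 were higher by limma (0 at an unadjusted p under 0.05) and 12 were lower at day 9, with a median of -0.69. With quantile normalization 9 were lower and 1 higher at day 9 against pregnancy day 17, and with ribosomal medians set equal 6 were lower and 2 higher, while 11 were lower against lactation day 2 with either. At lactation day 2 against pregnancy day 17, 7 were higher with quantile normalization and 10 with ribosomal medians. Lars, for leucine, fell by 1.52 (limma adjusted p = 1.56e-05), Nars, for asparagine, by 1.24 (adjusted p = 0.000138) and Eprs, for glutamate and proline, by 1.20 (adjusted p = 7.74e-05) at lactation day 9 against pregnancy day 17. In those comparisons 32.2% of probe sets were called higher and 31.9% lower at day 9 against pregnancy day 17, and 8.82% and 16.2% against lactation day 2.

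The summed intensity of lymphocyte markers on the 8% fat arrays lay above that of the chow gland, and on 16% and 40% fat it overlapped. The sum of 9 markers was 2513 to 5979 on 8% fat, 1311 to 1987 on 16% and 1346 to 6597 on 40%, and 740 to 1517 in the chow gland at lactation day 9. These sums mostly follow 1 gene, Ighm, which averaged 11.7 in log2 on 8% fat. There Cd3d, Cd3g, Cd79a and Ms4a1 averaged 4.58, 4.62, 4.57 and 5.29. The markers did not move together. On 8% fat against lactation day 9, Ighm, an immunoglobulin gene, changed by 1.76 (limma adjusted p = 0.0252) and Cd3d by -0.46 (limma adjusted p = 0.0475). Cd3g, Cd79a and Ms4a1 were not called, with changes of -0.15, -0.07 and -0.29. The part of these cells in the transporter levels of the diet arrays was not tested.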
